A study of Homo sapiens and Mus musculus with 20 samples.

Results

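The basal identity genes of the mammary epithelium are described here through their chromatin in the human mammary line MCF10A: TP63, KRT5, KRT14, KRT17, KRT6A, LAMB3, ITGA6, ITGB4 and COL17A1. They are 9 of the 19748 protein-coding genes of the annotation, listed by name, and the rule that defines their windows uses no measured value. The members and the other gene lists were, however, chosen with earlier results of these data known. Each gene was taken with 50 kb on either side of its body, and every peak that shared at least 1 bp with that window was counted. The windows of KRT5 and KRT6A overlap on chromosome 12, and those of KRT14 and KRT17 overlap on chromosome 17. The 9 windows therefore form 7 separate regions of 1.25 Mb in all, in which each peak was counted once.

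MCF10A is an immortalized, non-tumorigenic epithelial line which by the study's account has no Satb1 of its own. Satb1 was supplied from an inducible lentiviral construct as a fusion to eGFP, in cell lines sorted to the same fluorescence. Chromatin immunoprecipitation with an antibody to GFP gave 5 peak lists. They come from cells with full-length Satb1 (22877 peaks), with Satb1 lacking the homeodomain, called ∆HD (50537 peaks), with the N-terminal and CUT1 domains alone, called N-C1 (62856 peaks), and with full-length Satb1 after 2 h of camptothecin (24475 peaks) or 2 h of ICRF-193 (37350 peaks). Camptothecin inhibits topoisomerase I and ICRF-193 inhibits topoisomerase II, the enzymes that release torsional stress in DNA. ATAC-seq, which reads out where a transposase can reach the DNA, gave 1 list from native MCF10A cells (175989 peaks) and 1 from MCF10A cells expressing Satb1 (206170 peaks). The other 13 of the 20 samples were not used here. With 1 list per condition there is no replicate error, so differences between lists are given without a test, and intervals on shares and counts are exact 95% intervals that cover counting error only. The depth behind each single list is not given. The paper reports fewer sites for N-C1 than for ∆HD, the reverse of the order of the lists used here. A site missing from a list may lie below the threshold of the peak caller. The lowest fold enrichment in the full-length list was 1.65, but only 1.6% of that list lay below 4.19. A missing site may therefore have a value well above 1.65.

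Basal cells of the mammary gland and of stratified epithelia sit on the basement membrane. TP63 encodes the p53 family factor that maintains their fate, and its internal promoter yields the ∆N isoforms that dominate in basal cells, while its upstream promoter yields the TA isoforms. KRT5 and KRT14 pair into the keratin filaments of basal cells, and KRT17 and KRT6A are keratins of activated or wounded epithelium. Those filaments are anchored by hemidesmosomes, in which the integrin α6β4, made by ITGA6 and ITGB4, and the transmembrane collagen XVII, made by COL17A1, hold the cell to laminin-332, whose β3 chain is made by LAMB3. Satb1 binds A/T-rich DNA of low helical stability and is best known from thymocytes.

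The label of the cells was set beside promoter accessibility. An ATAC peak lay at a promoter, defined as 1000 bp before to 100 bp after any annotated protein-coding start, of 8 of 8 epithelial marker genes, among them CDH1, EPCAM, KRT8 and KRT18, in both lists. Among 10 markers of other cell types, 4 had such a peak in the native list (INS, GFAP, HBB and RBFOX3) and 5 in the Satb1 list, with MYH6 added. CD3E and PTPRC of lymphoid cells, ALB of liver and DES of muscle had none in either list. Of all protein-coding genes, 77.0% had an accessible promoter in the native list and 80.6% in the Satb1 list, so an open promoter alone says little about cell type.

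The consensus searched was C or T, then TA, then A or T, then TA, then A or G, written YTAWTAR, which reads the same on both strands, and overlapping matches were each counted. Of all 150 bp tiles of the genome, 10.6% hold a match, and of all 400 bp tiles, 25.8%. The sequences below show what the consensus looks like inside and outside the Satb1 peaks of the members. The first set is 150 bp of GRCh37 on the plus strand at full-length Satb1 peaks, centred on the peak midpoint except where the summit is named, with each match in capitals.

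TP63, midpoint of the strongest peak, chr3:189634628-189634777: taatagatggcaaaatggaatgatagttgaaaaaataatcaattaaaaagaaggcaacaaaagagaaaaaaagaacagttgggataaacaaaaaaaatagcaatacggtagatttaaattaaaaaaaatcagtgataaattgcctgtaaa
TP63, summit of the same peak, chr3:189634544-189634693: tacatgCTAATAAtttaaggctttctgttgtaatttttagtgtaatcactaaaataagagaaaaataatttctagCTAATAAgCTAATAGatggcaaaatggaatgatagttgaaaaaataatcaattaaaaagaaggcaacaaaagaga
TP63, peak near the end of the gene, chr3:189609174-189609323: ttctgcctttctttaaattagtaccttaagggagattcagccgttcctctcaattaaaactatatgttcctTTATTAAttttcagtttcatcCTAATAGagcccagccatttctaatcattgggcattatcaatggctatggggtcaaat
ITGA6, strongest peak, chr2:173313207-173313356: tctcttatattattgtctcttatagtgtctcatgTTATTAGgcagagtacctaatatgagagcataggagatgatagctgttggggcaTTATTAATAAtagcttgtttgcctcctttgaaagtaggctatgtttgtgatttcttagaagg
COL17A1, strongest peak, chr10:105777836-105777985: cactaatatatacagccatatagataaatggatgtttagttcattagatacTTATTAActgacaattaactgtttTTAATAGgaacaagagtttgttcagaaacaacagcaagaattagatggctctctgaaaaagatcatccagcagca
LAMB3, only peak, chr1:209754258-209754407: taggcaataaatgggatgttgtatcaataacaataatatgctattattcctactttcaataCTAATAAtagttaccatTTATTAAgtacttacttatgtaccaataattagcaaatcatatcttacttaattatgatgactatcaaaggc

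At the strongest TP63 peak the matches sit at the summit, where there are 3, while the 150 bp at its midpoint hold 0. The ITGA6 sequence holds 3 matches, with a pair of overlapping matches in the run of 10 capitals, and the COL17A1 and LAMB3 sequences hold 2 each. The COL17A1 sequence runs into an exon of the neighbouring gene SLK. The second set shows stretches that no peak of the 5 lists covers: the densest group of matches between KRT5 and its upstream neighbours, and the 150 bp just before the start of the ∆N isoforms of TP63, both on the plus strand.

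KRT5 locus, match group outside every Satb1 peak, chr12:52927166-52927315: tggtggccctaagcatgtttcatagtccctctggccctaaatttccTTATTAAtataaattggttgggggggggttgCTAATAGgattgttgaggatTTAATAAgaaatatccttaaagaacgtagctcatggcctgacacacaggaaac
TP63 ∆N start, chr3:189507298-189507447: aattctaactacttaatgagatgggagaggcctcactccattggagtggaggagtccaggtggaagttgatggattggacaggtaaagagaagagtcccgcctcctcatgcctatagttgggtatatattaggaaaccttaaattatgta

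The KRT5 group holds 3 matches in 150 bp, as many as the ITGA6 site, at 58.7% A/T against 64.7%. The bases before the ∆N start of TP63 (56.7% A/T) hold none. A match in the same 150 bp is rare at promoters in general, at 2.85% of all protein-coding genes.

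Full-length Satb1 peaks fell into the windows of 4 of the 9 members, TP63 (4 peaks), ITGA6 (2), COL17A1 (2) and LAMB3 (1), and into none of the keratin windows nor that of ITGB4. Across all protein-coding genes, 44.2% had a full-length peak in a window made the same way, and the share of members was 44.4% (13.7% to 78.8%). That interval counts the 9 members as independent, although the keratin windows overlap in pairs. ∆HD peaks were found in 4 member windows (61.6% of all genes), N-C1 peaks in 5 (63.6%), peaks after camptothecin in 3 (41.0%) and peaks after ICRF-193 in 4 (50.8%). KRT5, KRT14, KRT17 and ITGB4 had no peak in any of the 5 lists, as was true of 31.7% of all genes. No full-length peak touched a member promoter, and only 0.846% of all genes had one there.

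The 7 regions held 9 full-length, 18 ∆HD, 26 N-C1, 9 camptothecin and 12 ICRF-193 peaks. Per Mb this was 7.20 full-length peaks (3.29 to 13.7), against 6.68 over the windows of all protein-coding genes and 8.05 over the genome. For N-C1 it was 20.8 peaks per Mb (13.6 to 30.5) against 18.5 over all gene windows. For ∆HD it was 14.4 (8.54 to 22.8) against 15.1. After camptothecin it was 7.20 (3.29 to 13.7) against 6.82, and after ICRF-193 9.60 (4.96 to 16.8) against 10.49. For each of the 5 lists the interval of the members included the value over all gene windows. Without the TP63 window, 5 full-length peaks were left. With a fold enrichment of at least 5, the regions held 7 full-length, 15 ∆HD, 18 N-C1, 8 camptothecin and 10 ICRF-193 peaks.

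**Figure D1:**
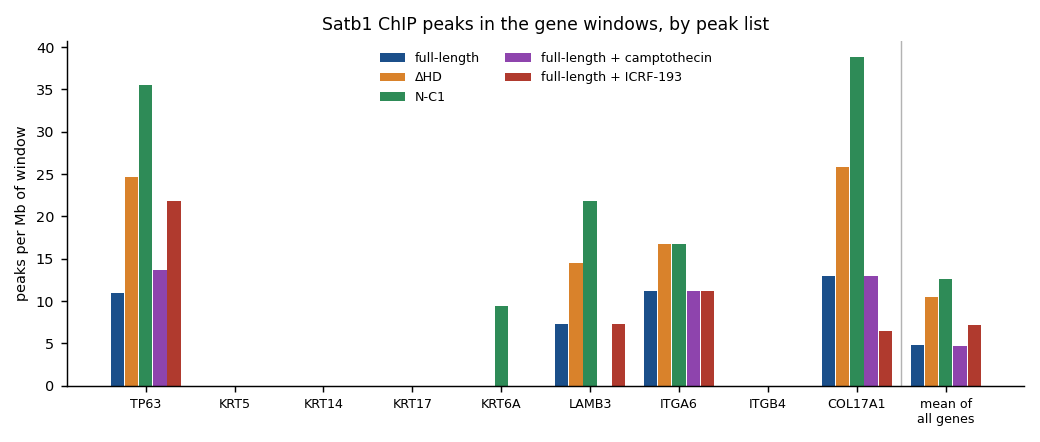
Bars give Satb1 ChIP-seq peaks per Mb of window (gene body and 50 kb on each side) for each member in the 5 peak lists, and at the right the mean over 19748 protein-coding genes. TP63 and COL17A1 stand highest, with 35.5 and 38.8 N-C1 peaks per Mb, while KRT5, KRT14, KRT17 and ITGB4 have no bar.

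Merging the 5 lists gave 30 sites in the member windows, 16 of them at TP63, 7 at COL17A1, 3 each at ITGA6 and LAMB3 and 1 at KRT6A. Of these, 20 lay in introns, 10 between genes and 0 in exons, by their midpoints. A total of 7 sites were in all 5 lists and 13 in 1 list only, of which 9 were in the N-C1 list, 3 in the ∆HD list and 1 in the ICRF-193 list. No site was found in the full-length list alone. The same shares over all merged sites of the genome were not computed. The lists differ in length, from 22877 full-length to 62856 N-C1 peaks, so these counts are not read as particular to the members. A consensus match was present within 400 bp at 29 of the 30 sites, with a median of 3.0 matches at the 9 full-length sites and 2.0 at the other 21. The A/T content over 200 bp had a median of 67.5% at full-length sites (64.5% to 75%) and 69.0% at the rest.

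TP63, the regulator of basal fate, occupies 265.9 kb of chromosome 3 (189349178 to 189615065, plus strand), and its window of 365.9 kb holds no other protein-coding gene. It had 4 full-length, 9 ∆HD, 13 N-C1, 5 camptothecin and 8 ICRF-193 peaks. A pair of full-length peaks lay in the intron after the TA starts, 10.2 kb (189359200 to 189359507, fold enrichment 6.64) and 10.8 kb (189359882 to 189360114, 5.68) downstream of the outermost start. The third was intronic near the end of the gene (189609075 to 189609422), 260.1 kb from that start, with a fold enrichment of 9.38. The strongest lay beyond the 3′ end (189634369 to 189635036), at 285.5 kb, with a fold enrichment of 14.9, above 86.2% of the full-length list. None was close to the ∆N starts, and all 4 were in all 5 lists.

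At the strongest TP63 site the fold enrichment was 14.9 in the full-length list, 10.9 in ∆HD, 22.2 in N-C1, 10.1 after camptothecin and 20.6 after ICRF-193. At the site near the end of the gene the values were 9.38, 13.7, 19.9, 7.36 and 11.0 in the same order. The site 10.2 kb into the gene gave 6.64, 10.9, 10.6, 8.09 and 12.2, the one member site where the camptothecin value exceeded the untreated value. Beyond these, 5 ∆HD peaks, 9 N-C1 peaks, 1 camptothecin peak and 4 ICRF-193 peaks lay at TP63 sites without a full-length peak, with fold enrichments of up to 7.64. Of the ICRF-193 peaks, 3 were intronic upstream of the ∆N starts, at 111.8 kb (fold enrichment 6.75, also N-C1), 122.1 kb (4.41, in no other list) and 138.2 kb (5.58, also ∆HD and N-C1). The fourth lay past the gene at 268.4 kb (5.38, also N-C1 and camptothecin).

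Of the 16 Satb1 sites of TP63, 0 overlapped an ATAC peak in either list (95% interval 0.0% to 20.6%). Accessible peaks are few in the whole full-length list too, at 3.42% in the native and 4.64% in the Satb1 list, both inside that interval. Only 4 of the 16 sites had a full-length peak, and the share for the other 4 Satb1 lists was not computed. The gap to the nearest native ATAC peak ran from 0.76 to 15.2 kb with a median of 5.29 kb. This was in a window of which 8.33% was covered by ATAC peaks in the native list and 9.40% in the Satb1 list. The sites were A/T-rich, with 64.5% to 78.0% A/T over 200 bp and a median of 71.8%. The whole window was 62.7% A/T, higher than the windows of 93.6% of protein-coding genes, and held 350 consensus matches, or 9.57 per 10 kb.

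The promoters of TP63 split by isoform. The 3 TA starts (189349178 to 189349305) had no ATAC peak in either list, although an upstream peak ended 0.21 kb from the promoter in the native list and 0.11 kb from it in the Satb1 list. The 3 ∆N starts (189507448 to 189507590) lay in an ATAC peak of 3.62 kb in the native list (fold enrichment 5.15) and of 3.80 kb in the Satb1 list (4.17). Taking the outermost start alone would leave TP63 as the only member without an accessible promoter. The nearest Satb1 site to the ∆N starts was 20.1 kb upstream, in the ∆HD, N-C1 and ICRF-193 lists.

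The 3 protein-coding genes with a peak profile most like TP63, by Euclidean distance of log2(peaks per Mb + 1) over the 7 lists and outside its window, were OSBPL8 (0.32), USP25 (0.34) and CHD9 (0.38). They had 4, 3 and 5 full-length peaks and 10, 9 and 12 N-C1 peaks, counts close to those of TP63 by the way they were picked.

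**Figure D2:**
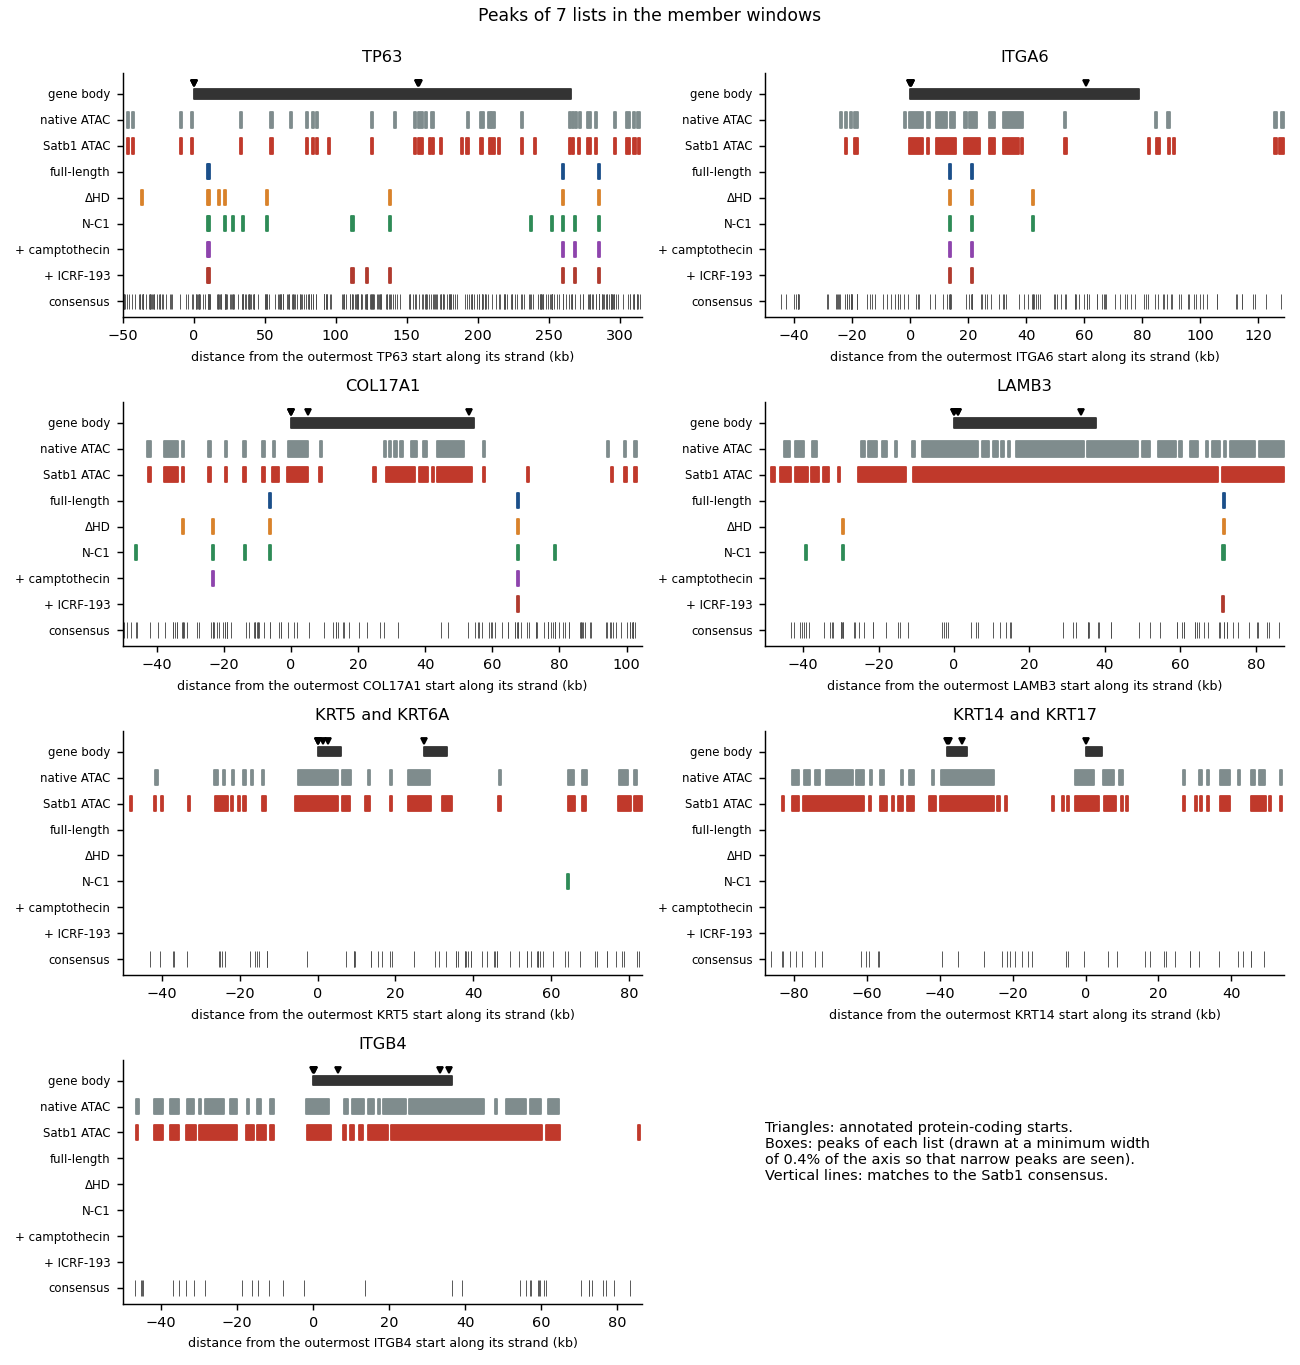
Each panel maps a member region along the distance in kb from the outermost start of the first-named gene, with gene bodies, annotated starts (triangles), ATAC peaks, Satb1 peaks of the 5 lists and consensus matches as rows. At TP63 the 16 Satb1 sites lie between ATAC peaks, at ITGA6 the 2 full-length sites lie inside them, and the keratin and ITGB4 panels have wide ATAC peaks and empty Satb1 rows except for 1 N-C1 peak.

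The keratin loci had almost no Satb1 peak and wide ATAC peaks. KRT5 (chromosome 12, 52908359 to 52914314, minus strand) had 0 Satb1 peaks of any list in its window, and its nearest full-length peak lay 162.8 kb from the gene body, farther than for 71.2% of genes. KRT6A (52880960 to 52887041, minus strand) had a single N-C1 peak (52849896 to 52850204, fold enrichment 5.52), 36.99 kb downstream of its start and nearest to the start of KRT6B. That site held 1 match and touched the edge of an ATAC peak in both lists, with its summit outside, with an ATAC fold enrichment of 4.35 in the native list and 5.05 in the Satb1 list. KRT14 (chromosome 17, 39738531 to 39743147, minus strand) and KRT17 (39775694 to 39781094, minus strand) had nearest full-length peaks at 410.3 and 447.5 kb, farther than for 90.9% and 92.2% of genes. The closest peak of any list was 226.3 kb from KRT14.

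Every keratin start was accessible in both lists, in ATAC peaks several kb wide. At KRT5, which forms the basal filament with KRT14, a single peak of 10.3 kb covered all 5 starts in the native list (fold enrichment 17.0), and it was 10.9 kb wide (14.4) in the Satb1 list. The start of KRT6A lay in a peak of 5.72 kb (13.9) in the native and 5.89 kb (13.6) in the Satb1 list. KRT14 differed more, with 5.23 kb and a fold enrichment of 7.01 in the native list against 6.58 kb and 3.43 in the Satb1 list. KRT17 had a peak of 14.55 kb (10.6) against 14.98 kb (6.25), and 96 peaks of the native list, itself included, were as wide. The share of the window in ATAC peaks was 22.3% and 30.2% at KRT5 (native and Satb1 list), 31.3% and 39.1% at KRT14, 39.8% and 52.2% at KRT17 and 25.95% and 32.8% at KRT6A.

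The KRT5 and KRT6A region held 69 consensus matches, 5.17 per 10 kb, and the KRT14 and KRT17 region 42, or 2.95 per 10 kb. Their A/T content was 54.0% and 47.6%, against a median of 55.7% over all gene windows. Only 1 of the 69 matches, and 0 of the 42, lay in a Satb1 peak of any list. Groups of 3 or more matches within 400 bp occurred 3 times at KRT5 and KRT6A, each outside every Satb1 peak, and 0 times at KRT14 and KRT17. The 3 genes most like KRT5 in peaks per Mb, by the measure used for TP63, were IFI6, VPS25 and MUC21. Each had 0 Satb1 peaks, 13 native and 16 Satb1 ATAC peaks, the same counts as KRT5 by the way they were picked.

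At ITGA6, the α6 integrin chain, both full-length Satb1 sites overlapped ATAC peaks in both lists, while a site of the ∆HD and N-C1 lists did not. The gene spans 79.1 kb of chromosome 2 (173292082 to 173371187, plus strand) and had 2 full-length, 3 ∆HD, 3 N-C1, 2 camptothecin and 2 ICRF-193 peaks, all intronic. The site 13.9 kb from the outermost start had fold enrichments of 6.46 in the full-length list, 9.68 in ∆HD, 12.3 in N-C1, 6.14 after camptothecin and 7.49 after ICRF-193. It lay in an ATAC peak of 1964 bp with a fold enrichment of 24.2 in the native list, and of 6757 bp with 12.1 in the Satb1 list. The site at 21.2 kb (173313119 to 173313445) had 8.39, 9.20, 7.89, 4.48 and 5.60 in the same order, the only member site where the N-C1 value was below the full-length value. Its ATAC peak was 2847 bp wide (7.12) in the native list and 5463 bp (6.94) in the Satb1 list. Both sites held 4 matches in 400 bp, with spacings of 54, 3 and 59 bp between match starts at the site at 21.2 kb.

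The main promoter of ITGA6 (5 starts, 173292082 to 173292517) lay in an ATAC peak of 4.73 kb (fold enrichment 12.7) in the native list and 5.07 kb (10.1) in the Satb1 list. An inner start at 173352690 had none in either list. The window was covered to 17.1% and 19.3%, a rise of 1.13 times, as at TP63, where it was also 1.13 times. Another site, found only in the ∆HD (5.22) and N-C1 (4.06) lists, lay 42.4 kb from the outermost start and was not accessible.

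ITGB4, the β4 chain that pairs with ITGA6 in the hemidesmosome, contrasted with its partner. Its window on chromosome 17 (gene body 73717408 to 73753899, plus strand) had no Satb1 peak in the 5 lists, and the nearest full-length peak was 478.7 kb away, farther than for 93.2% of genes. After either drug the nearest peak was 908.1 kb away. ATAC peaks covered 48.4% of the window in the native list, more than in 98.9% of genes, and 59.8% in the Satb1 list. The main starts (73717408 to 73717577) lay in a peak of 6.09 kb (fold enrichment 15.1) and 6.37 kb (10.7) respectively. The 2 starts at the 3′ part of the gene lay in a peak of 19.8 kb in the native list and 39.6 kb in the Satb1 list, and the start at 73723882 had none in either. The region was 48.6% A/T and held 35 matches, 2.56 per 10 kb, the lowest density of the 7 regions.

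COL17A1, the hemidesmosomal collagen (chromosome 10, 105791044 to 105845638, minus strand), had 2 full-length, 4 ∆HD, 6 N-C1, 2 camptothecin peaks and 1 ICRF-193 peak. Distances upstream of a start are negative. The full-length peak closest to any member start was here, at -6.11 kb (105851630 to 105851873), with a fold enrichment of 4.45, 6.13 in ∆HD and 7.26 in N-C1, and it was in neither drug list. The stronger peak lay 67.7 kb from the outermost start inside an intron of SLK (105777785 to 105778037), with 6.37 in the full-length list, 8.77 in ∆HD, 13.0 in N-C1, 5.55 after camptothecin and 6.36 after ICRF-193. Neither overlapped an ATAC peak. A site at -23.3 kb was absent from the full-length list but present in ∆HD (9.72), N-C1 (7.60) and camptothecin (7.18). The accessible sites were a ∆HD site at -32.2 kb (3.11), in an ATAC peak of fold enrichment 27.3 in the native and 19.4 in the Satb1 list, and an N-C1 site at -13.7 kb (4.13), the only one of the 30 sites without a match.

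The COL17A1 main starts (105845536 to 105845638) lay in an ATAC peak of 5.96 kb (fold enrichment 5.02) in the native list and 6.22 kb (4.81) in the Satb1 list. The innermost start, 105792726, was the only member start that changed between the lists: it had no native peak, with the nearest 0.27 kb from its promoter, and lay in a Satb1 ATAC peak of 10.49 kb (2.80). The window was covered to 19.5% and 28.2%, or 1.45 times as much in the Satb1 list.

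LAMB3, the laminin β3 chain (chromosome 1, 209788215 to 209825770, minus strand), had the most accessible window. ATAC peaks covered 63.4% of it in the native list and 88.5% in the Satb1 list, above 99.8% and 99.5% of genes. The starts at the 5′ end (209824679 to 209825770) lay in a native peak of 14.95 kb with a fold enrichment of 20.9. In the Satb1 list 1 peak of 81.0 kb (209755695 to 209836689, 8.53) ran across the whole gene and joined 14 native peaks, and only 8 peaks of that list, itself included, were as wide. The number of ATAC peaks in the window therefore fell from 24 to 9 while the covered length rose.

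The full-length Satb1 peak of the LAMB3 window (209754206 to 209754459) was the weakest of the members, at 4.19, above only 1.6% of the list. It lay 71.4 kb from the outermost LAMB3 start and 2.73 kb from the start of CAMK1G. The fold enrichment there was 6.95 in ∆HD, 5.19 in N-C1 and 4.26 after ICRF-193, and the site was not in the camptothecin list. It touched the edge of a native ATAC peak of 512 bp (2.54), with its summit outside it, and lay in a Satb1 ATAC peak of 20975 bp (5.23). Upstream of LAMB3, ∆HD and N-C1 shared a site at -29.5 kb (4.74 and 4.55). N-C1 had a further site at -39.3 kb (4.15), in an intron of HSD11B1, which was accessible in the Satb1 list only.

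Over the members, 3 of the 9 full-length peaks were accessible in the native list (33.3%, 7.5% to 70.1%) and the same number in the Satb1 list, the 2 ITGA6 sites and the LAMB3 site. Of the whole full-length list, 3.42% were accessible in the native list and 4.64% in the Satb1 list. By the rule of 1 bp shared, both lay below the interval of the members. The member share rests on few peaks, 2 of them in the same gene, and without ITGA6 the share was 1 of 7. With ATAC peaks of −log10 q of at least 5, 2 of the 9 were accessible in the native list and 3 in the Satb1 list. Requiring the summit inside the ATAC peak gave the same counts. In both cases the LAMB3 peak dropped out of the native count, and no interval was computed for 2 of 9. Of all 30 sites of the 5 lists, 6 were accessible in the native list (20%, 7.7% to 38.6%) and 7 in the Satb1 list (23.3%, 9.9% to 42.3%). Of these 30, 21 had no full-length peak, and the share over all sites of the 5 lists in the genome was not computed. The values of the full-length list are therefore not a background for them. The member regions are themselves more open than most, with 25.9% of their length in native ATAC peaks against 7.35% over all gene windows, and the part of this in the difference was not tested.

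All 9 full-length peaks had a consensus match within 400 bp (66.4% to 100%), as had 96.7% of the full-length list. All 9 were also in the ∆HD list (88.6% of the whole list) and in the N-C1 list (95.2%), 7 were in the camptothecin list (81.7%) and 8 in the ICRF-193 list (92.9%). Fold enrichment, which MACS2 gives for a peak over its local background, was higher in ∆HD than in the full-length list at 8 of 9 shared peaks, against 74.9% over the whole list, and higher in N-C1 at 8 of 9, against 86.6%. It was higher after ICRF-193 at 6 of 8, against 75.3%, and higher after camptothecin at 1 of 7, against 40.5%. Each of these lists was scaled on its own, with median fold enrichments of 7.33 in the full-length list, 6.51 in ∆HD, 6.0 in N-C1, 6.64 after camptothecin and 6.75 after ICRF-193. The members followed the lists as a whole in direction in all 4 comparisons.

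**Figure D3:**
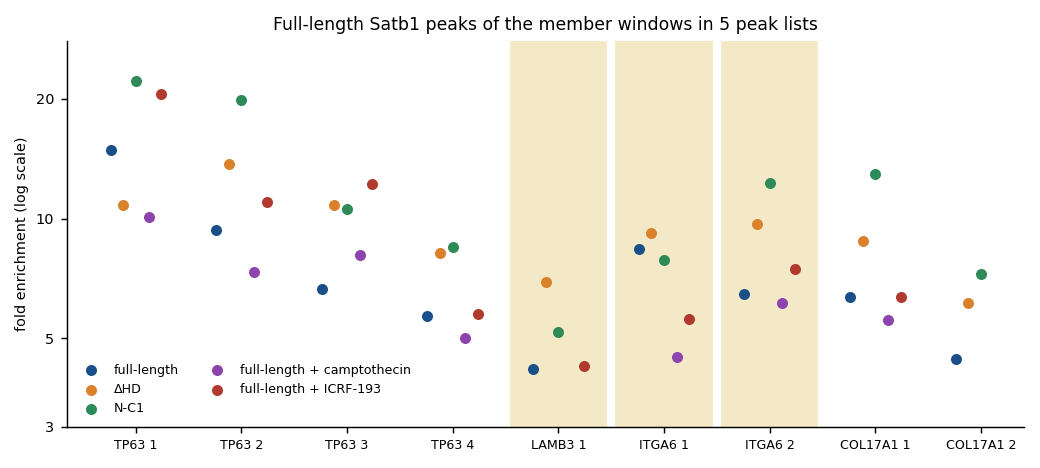
Points give the authors' MACS2 fold enrichment (log axis) of the 9 full-length Satb1 peaks of the member windows in each of the 5 lists, ordered by gene and then by full-length value; a missing point means no peak in that list. Shaded peaks overlap an ATAC peak of the native list. The N-C1 point is above the full-length point at 8 of the 9 peaks and reaches 22.2 at the strongest TP63 peak.

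All 9 members had an accessible promoter in both ATAC lists (100%, 66.4% to 100%). Of all protein-coding genes, 77.0% had one in the native list and 80.6% in the Satb1 list, both inside that interval. At the promoter peak with the largest value, the fold enrichment was lower in the Satb1 list at each of the 9, which was also true of 93.0% of all genes accessible in both. The median fold enrichment of the whole list was 4.39 in the native and 2.93 in the Satb1 list, so the whole list was lower too. LAMB3 had the widest gap, 20.9 against 8.53, and KRT6A among the narrowest, 13.9 against 13.6. The peaks compared differ in width, from 14.95 kb in the native to 81.0 kb in the Satb1 list at LAMB3. At KRT6A they were 5.72 and 5.89 kb wide. The part of peak width in these values was not tested, so the gap at LAMB3 is not read as a loss of accessibility.

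The share of the window in ATAC peaks was higher in the Satb1 list at 9 of 9 members, as it was for 88.4% of all genes. Over the 7 regions it went from 25.9% to 33.6%, with 309.4 kb in both lists, 14.1 kb in the native list only and 110.6 kb in the Satb1 list only. Over all gene windows it went from 7.35% to 11.7%, and over the genome from 5.79% to 9.01%. The median gene had 1.48 times the coverage in the Satb1 list (lower quartile 1.16, upper quartile 1.89), and the member median was 1.26 times. Each member's ratio was below that of the median gene, from 1.13 at TP63 and ITGA6 to 1.45 at COL17A1. The position of every member among all genes was lower in the Satb1 list than in the native list, for example above 77.4% and then 61.8% of genes at ITGA6 and above 94.7% and then 84.3% at KRT14. The median native coverage was 25.9% for the members and 8.67% for all genes, and a high starting share limits how far a ratio or position can rise. In percent of length, the rise over the 7 regions was larger than over all gene windows. The lower ratios are therefore not read as less opening at the members. Depth and the calling of broad peaks can also change covered length, and the part of each was not tested.

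**Figure D4:**
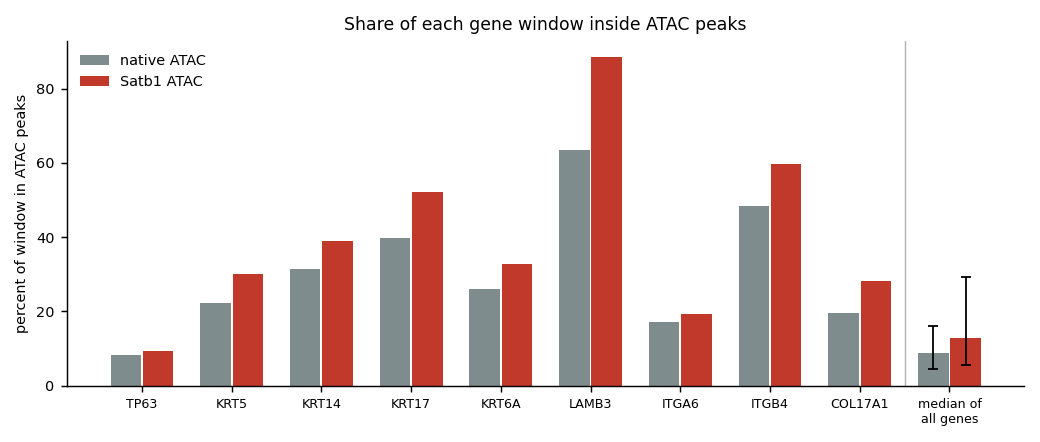
Bars give the percent of each member window inside ATAC peaks in the list from native MCF10A cells and in the list from cells expressing Satb1; at the right, the median over 19748 genes with whiskers from the lower to the upper quartile. LAMB3 reaches 63.4% and 88.5%, TP63 stays at 8.33% and 9.40%, and every pair is higher in the Satb1 list.

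Distal ATAC peaks present in 1 list only were counted by an overlap of at least 1 bp. Of the 154 native peaks in the member regions, 11 were not in the Satb1 list (7.1%, 3.6% to 12.4%), against 11.2% of the whole list. Of the 140 Satb1 peaks, 31 were not in the native list (22.1%, 15.6% to 29.9%), against 29.8%. These counts depend on the rule: with 50% of both peaks required to overlap they were 76 in the native and 62 in the Satb1 list, and with a −log10 q of at least 5 they were 5 and 16. None of the 11 or the 31 overlapped a member promoter. The median fold enrichment of the 11 was 2.72 and of the 31 was 2.02, where all member peaks had medians of 4.46 and 3.58. The strongest in the native list alone lay at -16.8 kb from KRT5, where a negative distance is upstream (52930953 to 52931227, 3.73), and the strongest in the Satb1 list alone lay in an intron of TP63, 81.9 kb past the ∆N starts (189589354 to 189589648, 3.80). Neither held a consensus match.

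By raw count, peaks found in the native list alone were most numerous at TP63 (4 of 31, at most 3.38), which has the longest region. Those in the Satb1 list alone were most numerous in the KRT14 and KRT17 region (10 of 27, at most 2.29). The KRT5 and KRT6A region had 1 and 5, and the strongest of the 5 (52879870 to 52882384, 2.42) overlapped an exon of KRT6A. ITGA6 had 3 native-only peaks of 18, a larger share than at TP63, the strongest at -20.3 kb (2.76), and 2 in the Satb1 list alone, at most 2.02. COL17A1 had 2 and 4, with maxima of 2.42 and 2.35. LAMB3 had 0 and 3, at most 2.20, and ITGB4 had 0 and 1, at 2.11. In all, 14 Satb1 ATAC peaks of the 7 regions each joined 2 or more native peaks, which numbered 54.

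The 7 regions held 836 matches, 6.69 per 10 kb, against 7.55 over all gene windows and 8.19 over the genome, at 56.3% A/T against 59.1% for the genome. Of these, 27 lay in a full-length peak (3.23%, 2.14% to 4.66%), against 2.73% of all matches in the genome. In native ATAC peaks lay 16.1% of the member matches (13.7% to 18.8%) against 3.06% in the genome, and in Satb1 ATAC peaks 20.7% (18% to 23.6%) against 4.02%. These intervals count matches as independent although many share a peak, so they are too narrow. Of the 27 matches in full-length peaks, 14 were at TP63 and 8 at ITGA6. LAMB3 held 60 of the 173 matches in Satb1 ATAC peaks. ATAC peaks covered 25.9% of the member regions and 5.79% of the genome in the native list, and 33.6% and 9.01% in the Satb1 list, so in each case the share of matches was below the share of length. Groups of 3 or more matches within 400 bp numbered 40, of which 18 were at TP63, 8 each at ITGA6 and COL17A1, 3 each at LAMB3 and at KRT5 with KRT6A, and 0 at KRT14 with KRT17 and at ITGB4. A full-length peak covered 5 of the 40 (12.5%, 4.2% to 26.8%), against 11.4% of the 128498 such groups in the genome. Any Satb1 list covered 14 (35%, 20.6% to 51.7%), against 28.45%.

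At the promoters themselves, 4 of the 9 members had a match within 1000 bp before to 100 bp after the outermost start, TP63, KRT14, ITGA6 and COL17A1 with 1 each, and 33.0% of all genes had one. No Satb1 list had a peak at any of these promoters.

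**Figure D5:**
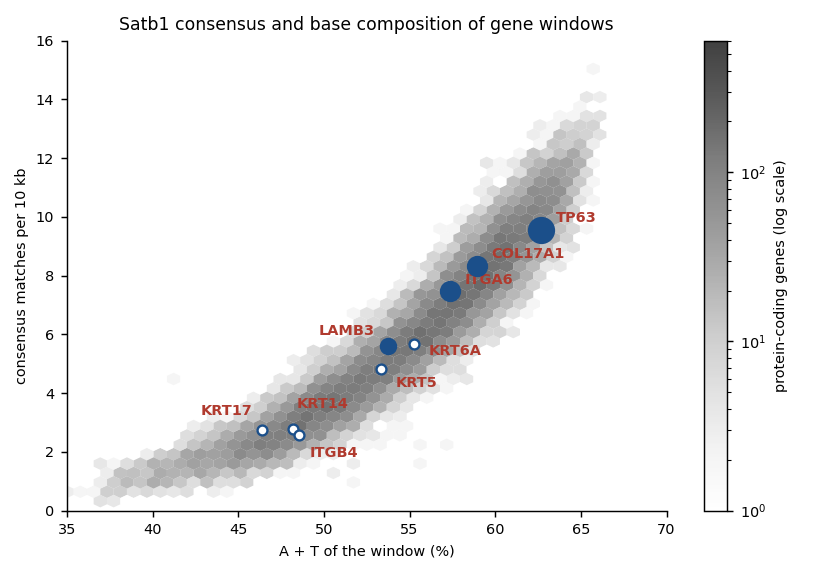
Grey hexagons count all protein-coding genes by the A/T content of their window (percent) and the density of YTAWTAR matches (per 10 kb); circles are the members, filled where a full-length Satb1 peak is in the window and larger with more peaks, open where there is none. TP63 lies at 62.7% A/T and 9.57 matches per 10 kb, ITGB4 at 48.6% and 2.56, and LAMB3, with a peak, at 53.7%, below KRT6A at 55.3% without.

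The other genes of the same compartments were counted in the same way. Of 10 hemidesmosome and basement membrane partners, among them ITGA3, ITGB1, CD151, COL7A1 and LAMA5, 3 had a full-length peak in the window, DST, LAMA3 and PLEC, with the most at DST, which encodes the plakin that links keratins to the hemidesmosome (7 peaks, 11.7 per Mb). Their promoters were accessible in 9 of 10 cases in the native list and in 10 of 10 in the Satb1 list, the difference being NID1. Of 20 other basal and stratified epithelial genes, 8 had a full-length peak, most at EGFR (3 peaks), and 19 promoters were accessible in the native list and 20 in the Satb1 list, KRT13 being the difference. Of 12 luminal genes, 6 had a full-length peak, most at PGR, the progesterone receptor (4 peaks). Accessible promoters were counted at 10 of the 12 in both lists, and KRT19 and PGR had none in either. These promoter counts stand beside 77.0% of all protein-coding genes in the native list and 80.6% in the Satb1 list. None of these genes had a full-length peak at a promoter. Of the 10 markers of other cell types, 5 had a full-length peak in the window, most at PTPRC (11 peaks, 50.2 per Mb), and of the 8 epithelial markers 3 had one. The shares with a full-length peak in the window, 3 of 10, 8 of 20 and 6 of 12, stand beside 44.2% of all genes and 4 of 9 members.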

How the data were processed

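ChIP-seq and ATAC-seq peak lists of MCF10A cells were analysed. Per the study's methods, the authors trimmed reads with cutadapt, aligned them to hg19 with Bowtie2, and called peaks with MACS2, as broad peaks for ATAC-seq; versions of Bowtie2 and MACS2 and whether replicates were pooled are not given in the sources used here. In the deposited lists, 1 column holds fold enrichment, MACS2's ratio over the local background. Further deposited columns hold −log10 of the p-value and of the q-value, an integer score that was not used and, for ChIP-seq, the summit offset. Depth is not given per list and can change peak number and width.

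Genes, starts and exons came from GENCODE 44 lifted to GRCh37, and sequence from GRCh37. Overlap meant at least 1 bp shared, matches were exact, and shares carry Clopper-Pearson and counts Poisson 95% intervals. Conditions had 1 list each, so none were compared by a test. The rule for what is named was all 9 members, each full-length peak of their windows, the ATAC peaks at their promoters, the strongest distal ATAC peak in 1 list only, and for each other gene list the gene with the most full-length peaks. The members and lists were chosen with earlier results of these data known. Alternatives varied the flank, peak threshold, promoter, overlap and consensus. Overlap, reciprocal overlap and coverage functions were tested on simulated data against bedtools (1000, 2000 and 1000 cases, 0 wrong) and match counting on 500 sequences (0 wrong). The N construct, inputs, TMP-seq and the VL3 samples were not analysed here. Some genes of the lists and some sequences are not reported here by name. Intervals were handled with pandas 2.3.3 and bedtools 2.31.1, sequence with samtools 1.23.1 and pysam 0.24.0, and statistics and plots with scipy 1.17.1, numpy 2.4.6 and matplotlib 3.10.9 under Python 3.11.15.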

Additional observations from a re-analysis of the deposited data

How the results depend on the processing

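Over the main counts and shares, 52 alternative values were computed, 45 fixed at the start and 7 chosen after seeing the data, a few for each. The merged sites, consensus matches, match groups and fold enrichment comparisons were not recomputed. In 37 the value stayed close to that reported, within 1.5 times for a count. With 10 kb flanks, ∆HD peaks numbered 11 and N-C1 peaks 16, and the windows were covered to 29.33% in the native and 35.13% in the Satb1 ATAC list. With ATAC peaks of −log10 q of at least 5, coverage was 21.68% and 30.15%, and peaks in 1 list only numbered 16 in the Satb1 and 5 in the native list. Requiring 50% overlap of both peaks gave 62 and 76, which turned the order of the lists, and the cause was not tested. Among those chosen after seeing the data, coverage without the LAMB3 window was 21.24% and 26.83%, full-length peaks without TP63 numbered 5, and accessible ones without ITGA6 numbered 1 in both lists. Leaving out ATAC peaks over 10 kb, 6 of 9 members kept an accessible promoter in each list. No paired analysis was possible because each condition had 1 list and no result came from a test.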
